A study of Mus musculus with 6 samples.

Results

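RNA and ribosome footprints of 10 genes that make up the p53 and retinoblastoma brakes on the cell cycle were described in cultured mouse squamous carcinoma cells: Trp53, its inhibitors Mdm2 and Mdm4, the Cdk inhibitor genes Cdkn1a, Cdkn1b, Cdkn1c, Cdkn2a, Cdkn2b and Cdkn2c, and Rb1. They were taken from the gene column of the count tables by name, and each of the 10 had a row of its own among 23698 rows. The tables covered SCCc, mouse keratinocytes of genotype HrasG12V; Tgfbr2 fl/fl KO that were started from back skin at postnatal day 0 and grown in low-calcium medium to passages 10 to 15. Of these cells 1 ribosome profiling library was analysed here, in which the mRNA fragments protected by ribosomes (footprints) are sequenced, and there were 2 RNA-seq libraries, called replicate 1 and replicate 2. All 3 libraries shared the genotype and no control group was analysed here, so every value below describes 1 cell line. Nothing in the labels says that the RNA-seq replicates were separate cultures.

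As background, p53 is a transcription factor that is stabilised by stress and switches on Cdkn1a, whose protein p21 inhibits Cdk complexes, and Mdm2, whose protein ubiquitinates p53 and so closes a feedback loop. Mdm4 binds p53 and blocks its activity together with Mdm2. The Cip/Kip proteins p21, p27 and p57 (from Cdkn1a, Cdkn1b and Cdkn1c) bind several cyclin-Cdk complexes, whereas the Ink4 proteins (from Cdkn2a, Cdkn2b, Cdkn2c and Cdkn2d) bind Cdk4 and Cdk6 and thereby keep the retinoblastoma protein, encoded by Rb1, active against E2F factors. In keratinocytes TGF-beta signalling is known to raise Cdkn2b and Cdkn1a, and active Ras is known to raise the Ink4 locus.

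In SCCc the RNA of this group was led by Cdkn1a and the footprints by Cdkn1a and Trp53. Relative to its RNA, Trp53 carried more footprints than the median gene by 2.00 on the log2 scale and Mdm4 carried fewer, 2.90-fold, while the other 6 genes that could be measured lay within 2-fold of the median. Cdkn2c RNA was present but had 0 footprints, and Cdkn1c was close to undetected in all 3 libraries.

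The ribosome profiling library held 3549554 counts on exons, RNA-seq replicate 1 held 10707930 and replicate 2 held 14003713. Levels are given as RPKM, counts normalised to the counted length in kilobases and to the exon total of the library, which allows genes of different length to be compared. RNA-seq was counted over all exons and footprints over the coding sequence (CDS). Intervals for footprints are exact two-sided 95% Poisson intervals of the counts, except that a count of 0 is given the one-sided limit of 3, and cover counting error only.

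Markers of the cell type were examined first. All 13 keratinocyte markers exceeded 1 RPKM, with a summed level of 16348 RPKM in replicate 1 and 18475 RPKM in replicate 2, led by the basal keratin gene Krt5 at 7965 and 9483 RPKM. The 12 fibroblast and feeder cell markers summed to 12.9 and 21.7 RPKM, and their most abundant gene was the collagen gene Col3a1 at 3.89 and 5.49 RPKM. None of the 12 was at 0 in both RNA-seq libraries. The 6 immune cell markers summed to 39.1 and 42.5 RPKM, of which the lysosomal gene Cd68 made 35.1 and 37.3 RPKM, and the T cell gene Cd3e was at 0. Melanocyte markers summed to 5.49 and 5.65 RPKM, with Pmel at 5.03 and 5.19 RPKM. Endothelial markers summed to 0.569 and 0.652 RPKM, with Kdr highest. The sum of the fibroblast and feeder cell markers and 10 of the 12 were higher in replicate 2, and their part in the differences between replicates given below was not tested. The CDS footprints of these 12 markers summed to 9.38 RPKM, of which Vim made 8.51 and Pdgfra 0.870 RPKM. Col1a1, Col1a2 and Col3a1 had 0 footprints. Tgfbr2, the targeted receptor gene, was still counted at 61.4 and 59.0 RPKM, and Hras at 48.5 and 50.9 RPKM; gene counts separate neither a deleted exon nor the G12V allele, so these values do not check the genotype.

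Cdkn1a had the highest RNA level of the 10 genes, with 112 RPKM in replicate 1 and 120 RPKM in replicate 2 (mean 116 ± 5.66, SD, n = 2), above 96.3% of all rows with RNA-seq counts. Mdm2 followed at 44.7 and 38.8 RPKM (41.7 ± 4.15). Trp53 stood at 31.9 and 34.2 RPKM (33.0 ± 1.62), below Mdm2 in both libraries. Its level exceeded 83.9% of rows, and the ratio of Cdkn1a to Trp53 RNA was 3.51 in either replicate. Mdm4 was lower, at 24.9 and 24.1 RPKM (24.5 ± 0.545), and Mdm2 RNA exceeded Mdm4 RNA by 1.80-fold in replicate 1 and 1.61-fold in replicate 2. In bulk libraries such levels do not tell a smaller share of expressing cells from less RNA per cell.

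Among the Cip/Kip genes, Cdkn1b gave 32.7 and 28.4 RPKM (30.6 ± 2.997) and Cdkn1c only 0.240 and 0.348 RPKM, from 5 and 9.47 counts. Cdkn1a therefore made 77.3% of the summed Cip/Kip RNA in replicate 1 and 80.6% in replicate 2. Among the Ink4 genes, Cdkn2a led with 26.5 and 36.2 RPKM (31.3 ± 6.87), followed by Cdkn2b with 8.11 and 9.97 RPKM (9.04 ± 1.32). Cdkn2c gave 3.70 and 3.64 RPKM, and the remaining Ink4 gene, Cdkn2d, 8.35 and 8.99 RPKM. Cdkn2a thus supplied 56.8% and 61.6% of the summed RNA of these 4 genes. Rb1, the substrate at the end of this route, gave 8.57 and 6.94 RPKM (7.75 ± 1.15).

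The order of RNA levels was Cdkn1a, Mdm2, Trp53, Cdkn2a, Cdkn1b, Mdm4, Cdkn2b, Rb1, Cdkn2c and Cdkn1c. The ranges of the 2 libraries overlapped between Trp53 and Cdkn2a, between Cdkn2a and Cdkn1b, and between Cdkn2b and Rb1, so these neighbours were not separated. All other neighbours in the order had ranges that did not overlap. Over the CDS alone the order differed: Cdkn1b (43.1 and 48.2 RPKM) and Cdkn2a (36.6 and 53.5 RPKM) stood above Trp53 (33.8 and 36.7 RPKM), which took the fifth place, and the ranges of Cdkn1b and Trp53 did not overlap, whereas those of Cdkn2a and Trp53 did.

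**Figure D1:**
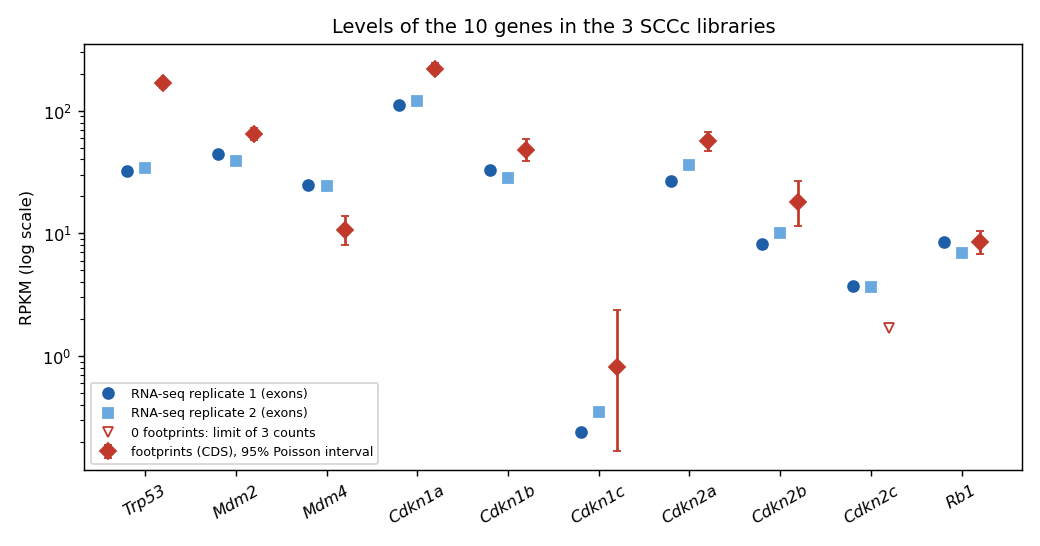
RPKM on a log axis for each gene in RNA-seq replicate 1 and replicate 2 (exons) and in the ribosome profiling library (CDS, diamonds with 95% Poisson intervals). The footprint level stood far above both RNA values for Trp53 (167 against 31.9 and 34.2 RPKM) and below them for Mdm4 (10.7 against 24.9 and 24.1 RPKM); the open triangle is the level that 3 counts would give for Cdkn2c, which had 0 footprints.

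Between the replicates, Cdkn2a was the widest apart among the 8 genes with over 100 counts in each RNA-seq library. Its log2 ratio of replicate 2 to replicate 1 was 0.45 (counting SE 0.10), 1.37-fold, and only 1.59% of the 9862 genes that passed the filters below had a higher ratio; the SD of the log2 ratio over those genes was 0.20. Cdkn2b followed in that direction at 0.30 (SE 0.17). Rb1 went the other way at -0.30 (SE 0.10), as did Mdm2 at -0.20 (SE 0.05). Trp53 and Cdkn1a each gave 0.10 (SE 0.09 and 0.04), and Mdm4 gave -0.05 (SE 0.06).

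Cdkn1b showed a replicate difference that depended on the region counted. Over all exons its log2 ratio of replicate 2 to replicate 1 was -0.20 (SE 0.07), but over the CDS it was 0.16 (SE 0.11), with 43.1 and 48.2 RPKM. The exon ratio did not exceed the SD of 0.20 over passing genes. The CDS ratio was under 1.96 times its SE, so no direction is read for Cdkn1b over the CDS. Its 3′UTR density was 367 counts per kb in replicate 1 and 316 in replicate 2, although replicate 2 was the deeper library. The log2 ratio of 3′UTR to CDS density fell by 0.77 from replicate 1 to replicate 2, and only 0.310% of 4516 genes with at least 100 counts in both regions had a lower shift; their median shift was -0.12 with an SD of 0.20. Cdkn2a and Cdkn2b had shifts of -0.88 and -0.69 but under 100 counts on the 3′UTR in at least 1 replicate, and Cdkn2b also on the CDS.

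In the ribosome profiling library Cdkn1a had 371 footprints on its CDS, or 219 RPKM (interval 198 to 243), and Trp53 had 503, or 167 RPKM (153 to 183). These were higher than 92.5% and 90.2% of the passing genes. Mdm2 followed with 320 footprints and 64.4 RPKM (57.6 to 71.9). Mdm4 had 55.6 footprints and 10.7 RPKM (8.06 to 13.9), lower than Mdm2 by 6.03-fold (interval of the ratio 4.54 to 8.02), a wider gap than at the RNA level. Trp53, which was below Mdm2 in RNA (ratio 0.714 and 0.881), had 2.6-fold more footprints per length than Mdm2 (2.26 to 2.99).

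For the remaining Cdk inhibitor genes the footprints ranked much as the RNA did. Cdkn2a had 127 footprints and 56.6 RPKM (47.2 to 67.3), and Cdkn1b had 100.4 footprints and 47.8 RPKM (38.9 to 58.2). Cdkn2b had 24.8 footprints and 17.9 RPKM (11.6 to 26.5), and Rb1 had 83.3 footprints and 8.50 RPKM (6.77 to 10.5). Cdkn1a made 81.8% of the summed Cip/Kip footprint level and Cdkn2a 57.1% of that of the 4 Ink4 genes, near their shares of RNA. In the order of footprint levels Trp53 took the second place, from the third in RNA over exons and the fifth over the CDS, and Mdm4 the seventh, from the sixth over exons and over the CDS. Among neighbours in the footprint order, intervals overlapped between Mdm2 and Cdkn2a, between Cdkn2a and Cdkn1b, between Cdkn2b and Mdm4, between Mdm4 and Rb1, and between Cdkn1c and Cdkn2c. The intervals of Mdm2 and Cdkn1b, which are not neighbours, also overlapped (57.6 to 71.9 and 38.9 to 58.2 RPKM).

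Translational efficiency (TE) was taken as the log2 ratio of footprint RPKM on the CDS to mean RNA-seq RPKM on exons, set to 0 at the median of 9862 genes. These genes had over 1 RPKM in each of the RNA-seq libraries, a counted CDS, footprints, and a base mean (mean normalised count over the 3 libraries) over 25. Of the 10 genes, 8 passed. With 1 footprint library there is no test of TE; the error given is the counting error of footprints and RNA-seq combined with the spread of the 2 RNA-seq replicates.

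Trp53 had the highest TE of the 8, at 2.00 (error 0.10), with 2.05 against replicate 1 alone and 1.94 against replicate 2 alone. That placed p53 mRNA above 93.3% of passing genes. Mdm4 had the lowest TE, at -1.54 (error 0.20), with -1.56 and -1.53 against the single replicates, above only 12.3% of passing genes. Thus 1 of 8 genes lay above 1, where 20.7% of all passing genes lay. Likewise 1 of 8 lay below -1, where 21.1% of all passing genes lay. Each share, 12.5%, rests on 1 gene, so no difference from its background is read. The median TE of the 8 was 0.41, and it ranged from -0.06 with counts not divided by length to 0.48 under the alternatives.

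The other 6 genes lay between. Cdkn2b had a TE of 0.65 (error 0.34), Cdkn1a 0.58 (error 0.10), Cdkn2a 0.51 (error 0.27), Cdkn1b 0.30 (error 0.17), Mdm2 0.28 (error 0.13) and Rb1 -0.21 (error 0.22). Neighbours from Cdkn2b down to Rb1 were not separated, since each difference was under 1.96 times its error. Rb1 was separated from Cdkn2b, Cdkn1a and Cdkn2a in the main setting. With counts not divided by length it lay above Cdkn2b and Cdkn1a (0.06 against -0.18 and -0.49), so the order of Rb1 and these 2 genes depends on the setting. The separation of Rb1 from Cdkn2a was narrow, 0.72 (95% interval 0.04 to 1.40, error 0.35). With RNA-seq over the CDS, Cdkn2a had 0.28 and Rb1 0.06, and against replicate 2 alone they had 0.29 and -0.06. Both gaps are under 1.96 times that error, so this separation also depends on the setting. Trp53 was separated from each of the other 7 genes, the nearest difference being 1.35 to Cdkn2b (95% interval 0.66 to 2.05), and Mdm4 likewise, the nearest difference being 1.33 to Rb1 (0.75 to 1.91). Over all 28 pairs, 16 were separated. With 1 footprint library these intervals hold no spread between footprint libraries, so separated is a description and not the result of a test. The difference between Mdm2 and Mdm4, the partners in p53 inhibition, was 1.82 (1.36 to 2.28), 3.54-fold, and that between Trp53 and Mdm4 was 3.54 (3.11 to 3.97), 11.6-fold.

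**Figure D2:**
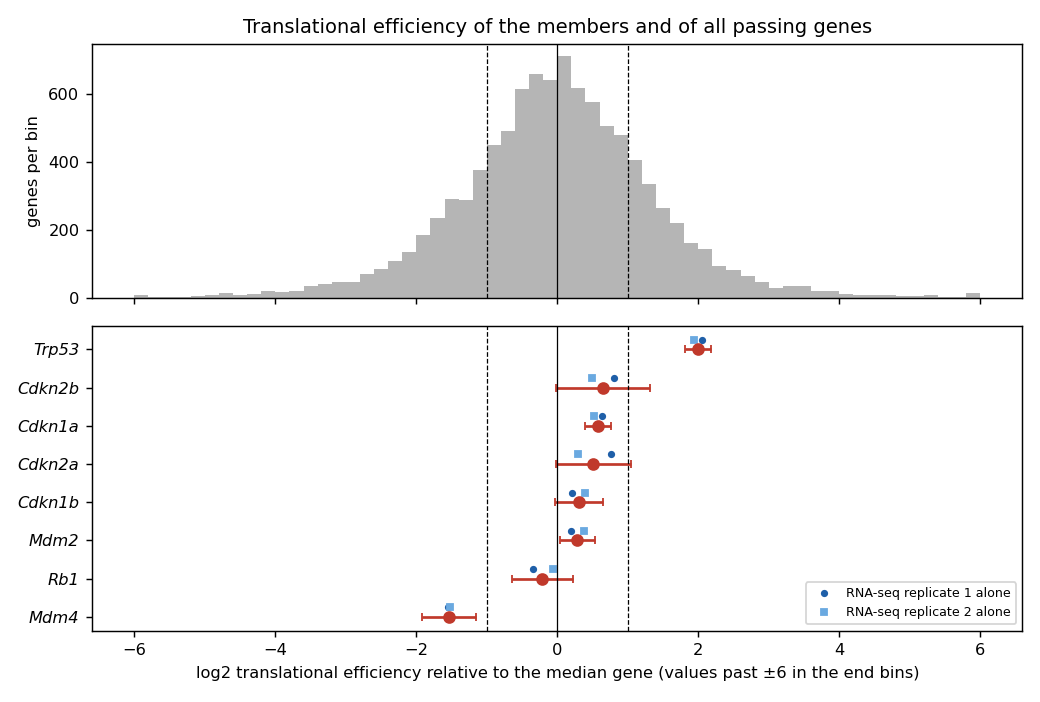
Above, a histogram of log2 TE relative to the median for 9862 genes; below, the 8 genes that passed, with bars of 1.96 times the error and small marks for each RNA-seq replicate alone. Trp53 at 2.00 and Mdm4 at -1.54 lie outside the dashed lines at 1 and -1, and the other 6 genes lie inside them.

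Trp53 and Mdm4 kept their side of 1 and -1 under each alternative that kept them: the TE of Trp53 ran from 1.60 to 2.26 and that of Mdm4 from -1.78 to -1.31. By contrast, the sign of TE flipped for Cdkn1a, Cdkn1b, Cdkn2b and Rb1 with counts not divided by length, so no direction is read for them; Cdkn2a stayed above 0, between 0.12 and 0.76. Mdm2 changed sign only with at least 100 counts in every library, from 0.28 to -0.11, but that setting moved each of the 5 members it kept by the same amount through the median of all genes, so it does not test Mdm2 itself. Only part of the Trp53 CDS was counted, 846 nt or 69.2% of the annotated coding positions, against a median of 99.9% over 19100 genes matched by name, of which 11.9% were under 80%. GENCODE M21 places a processed pseudogene, Trp53-ps, on chromosome 17, and another, Mdm4-ps, on chromosome X. Reads of Trp53 and of Mdm4 may therefore be shared with a copy, and the values of both genes are uncertain to that extent; 96.3% of the Mdm4 coding positions were counted. With RNA-seq counted over the same CDS positions as the footprints, the TE of Trp53 was 2.20.

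Both genes that did not pass had little or no footprint signal. Cdkn2c, which encodes p18, had 43.8 and 56.4 RNA-seq counts and 0 footprints. At the median TE its RNA would have given 8.32 footprints on the CDS, and 3 counts, the one-sided 95% limit for a count of 0, would put its TE at -1.47; this limit is tighter than the two-sided intervals of the other genes and covers counting error of the footprints only. Its base mean of 18.9 was under the minimum. Cdkn1c had 3 footprints where 1.37 would be given by the median TE, and the ratio, 1.13 with an interval of -1.15 to 2.68, does not place it on either side.

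Start codons are shown next because ribosomes choose them by their neighbours: a purine at position -3 and G at +4, counted from the A of ATG as +1, are known to favour initiation. Each line gives 12 bases before the start codon, ATG in capitals and 1 base after, from 1 GENCODE M21 transcript per gene (GRCm38), with 2 for Cdkn2a.
Trp53: tccgaagactggATGa
Mdm2: gcctccaggccaATGt
Mdm4: ttcactgccaaaATGa
Cdkn1a: gccacaggcaccATGt
Cdkn1b: ccgaggaggaagATGt
Cdkn1c: agcagaacagcgATGg
Cdkn2a-201: atctggagcagcATGg
Cdkn2a-202: agcagcgggagcATGg
Cdkn2b: ggggacaagggcATGt
Cdkn2c: ggaccctaaagaATGg
Rb1: gcgctgcgcgtcATGc

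The ATG of Trp53 lies at chr11:69586891-69586893 on the + strand and that of Mdm2 at chr10:117709778-117709780 on the - strand. Those of Mdm4 and Rb1 are at chr1:133018852-133018854 and chr14:73325639-73325641, both on the - strand. Cdkn1a starts at chr17:29098408-29098410 and Cdkn1b at chr6:134920920-134920922, both on the + strand. Trp53 and Mdm2 had no purine at -3, which 85.0% of 19447 genes had; both also lacked G at +4, which 49.8% had. Cdkn1c, both Cdkn2a transcripts and Cdkn2c had both bases, as did 42.1% of genes. The gene with the highest TE of the 8, Trp53, thus had neither base, and Mdm4, with the lowest, had the purine but not G; these are descriptions of single sequences.

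The Cdkn2a lines belong to mRNAs that start at separate promoters and read different frames. Cdkn2a-202 begins at the first base of the gene on the - strand, chr4:89294521-89294523 being its ATG, and its CDS is 510 nt with the stop codon. Cdkn2a-201 starts downstream, with its ATG at chr4:89282109-89282111 and a CDS of 507 nt. They correspond to the p19Arf and p16Ink4a proteins, of which the first acts on Mdm2 and the second on Cdk4 and Cdk6. Gene counts add both, so the TE of 0.51 is that of the sum. Cdkn2b lies on the same strand 11646 nt from Cdkn2a, with its ATG at chr4:89310795-89310797.

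ATG triplets in the 5′UTR, which can engage ribosomes before the main start, were found in the chosen transcripts of Mdm2 (2), Mdm4 (2), Cdkn2a-202 (1) and Cdkn2c (3), and in 51.4% of genes. Trp53, Cdkn1a, Cdkn1b, Cdkn1c, Cdkn2a-201, Cdkn2b and Rb1 had 0. All 8 of these upstream frames closed before the main start; the longest of Mdm2 began 161 nt before the main ATG and had 14 codons, and those of Mdm4 began 188 and 124 nt before it with 5 and 4 codons. The 5′UTR of the Cdkn1b transcript, 519 nt, was longer than in 92.9% of genes, and that of Rb1 had the highest GC share of the 11 transcripts, 75.7% against a median of 60.6%.

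Footprints outside the CDS were compared next. Over the whole ribosome profiling library 90.1% of exon counts lay on the CDS, 4.50% on 5′UTRs and 1.84% on 3′UTRs. Cdkn1b had 67.8% of its 148 exon footprints on the CDS (Wilson 95% interval 59.9% to 74.8%), and only 5.90% of 5425 genes with at least 100 exon footprints had a lower share, the median being 94.3%. Cdkn2b was similar at 60.5% but of only 41.0 footprints (45.3% to 73.9%), and Mdm4 had 80.2% of 69.4 (69.3% to 87.9%), an interval that overlaps that of Cdkn1b. Rb1, by contrast, had 99.2% of 84.0 on the CDS (94.2% to 99.9%). Trp53 gave 86.2% (83.1% to 88.7%), Cdkn1a 87.1% (83.6% to 89.9%), Cdkn2a 85.9% (79.4% to 90.6%) and Mdm2 91.8% (88.5% to 94.3%).

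A log2 ratio of 5′UTR to CDS density was taken only where at least 60 nt of 5′UTR were counted, with 30 footprints on it and 10 on the CDS, which 2 of the 10 genes met. Cdkn1b had 40.6 footprints on 519 nt of 5′UTR, 78.2 per kb (interval 56.0 to 106), against 170 per kb on the CDS (138 to 206), a log2 ratio of -1.12 (counting SE 0.27). Cdkn1a had 42.1 on 217 nt, 194 per kb (140 to 262), against 779 per kb on the CDS (701 to 862), a log2 ratio of -2.00 (SE 0.23). The median of 1102 eligible genes was -1.01, with Cdkn1b above 46.3% of them and Cdkn1a above 21.5%. These genes were kept for having at least 30 footprints on the 5′UTR, so they are not a background of all genes. Divided by the same ratio in RNA-seq, the values were 0.17 for Cdkn1b and -1.37 for Cdkn1a, against a median of 0.47 over 1045 genes.

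For some genes short of that rule only the densities and their intervals are given. Trp53 had 29.5 footprints on 122 nt of 5′UTR, 242 per kb (162 to 346), against 594 per kb on its CDS (543 to 648). Mdm4 had 12.1 footprints on 209 nt, 57.8 per kb (29.96 to 101), where its CDS had 37.9 per kb (28.6 to 49.3). Those intervals overlap, so a footprint density higher on the 5′UTR of Mdm4 than on its CDS was not detectable at this depth. These densities are not divided by RNA-seq. In RNA-seq the 5′UTR of Mdm4 had 153 and 253 counts per kb in replicates 1 and 2, and its CDS 287 and 342. Mdm2, with as many upstream ATGs, had 8.06 footprints on 294 nt, 27.4 per kb (11.9 to 53.9), and 229 per kb on its CDS (204 to 255). Cdkn2b, with 0 upstream ATGs, had 11 footprints on 235 nt, 46.8 per kb (23.4 to 83.8). Its CDS had 63.6 per kb (41.1 to 94.0), so its intervals overlap as well. Cdkn2a had 9.97 footprints on 177 nt, 56.3 per kb (27.0 to 104), and 201 per kb on its CDS (168 to 239). On the 3′UTR each of the 10 genes had at most 12.9 footprints; Cdkn1a had those 12.9, or 9.81 per kb, and Trp53 7.37, or 18.4 per kb.

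**Figure D3:**
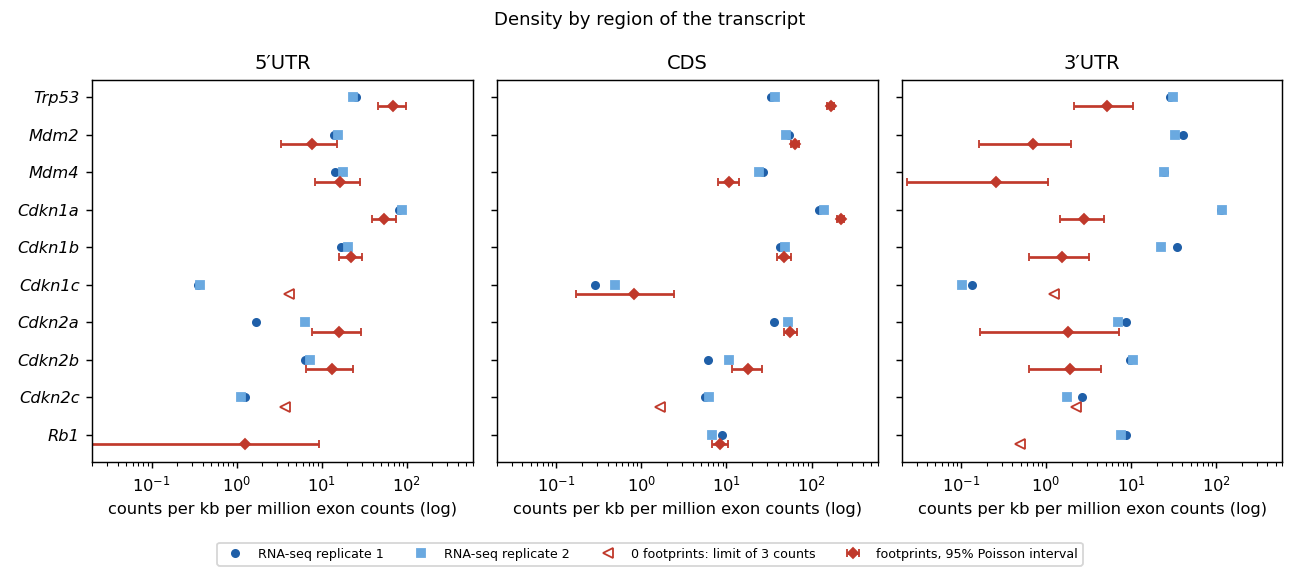
Counts per kb, normalised to the exon total of each library (log axis), on the 5′UTR, CDS and 3′UTR of each gene in RNA-seq replicate 1, replicate 2 and the ribosome profiling library, the last with 95% Poisson intervals; open triangles mark the level of 3 counts where there were 0 footprints. RNA-seq covered all 3 regions while footprints dropped on the 3′UTR, and Mdm4 is the only gene whose CDS footprint level lies below RNA-seq with an interval that excludes both replicates, apart from Cdkn2c at 0; RNA-seq values at 0, as on the 5′UTR of Rb1, are not drawn.

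Overlapping annotation touches some of these loci. Wrap53 starts 104 nt from Trp53 on the other strand without overlap. Rb1 contains or overlaps 4 other genes, among them Lpar6 and Rcbtb2, 2 of them on the other strand, and Mdm4, Cdkn1a and Cdkn1c each overlap 1 gene on the other strand. Whether counting used strand is not given in the sources used here, so reads of such neighbours may be included in these counts.

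The genes on which p53 acts were described by a list of 30 known targets. Of these 28 passed the filters, with a median TE of 0.05, 5 above 1 (17.9%, against 20.7% of all passing genes) and 6 below -1 (21.4%, against 21.1%). The median took either sign under the alternatives, from -0.35 with counts not divided by length to 0.11. Sfn, which encodes the checkpoint protein stratifin, had the highest mean RNA level at 753 and 806 RPKM, though Perp, at 778 and 774 RPKM, was above it in replicate 1. The BH3-only gene Pmaip1 had the highest TE of the list, 2.35 (counting SE 0.08), from 49.3 and 42.2 RPKM of RNA and 296 RPKM of footprints. The death receptor gene Tnfrsf10b followed at 1.15 (SE 0.15). Sesn1, a stress-inducible inhibitor of mTORC1 signalling, had the lowest, -3.12 (SE 0.20), with 59.3 and 57.8 RPKM of RNA but 53 footprints, and Ei24 was next at -1.96 (SE 0.15).

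All 20 regulators of p53 passed, with a median TE of -0.11, 4 above 1 (20.0%, against 20.7% of all passing genes) and 2 below -1 (10.0%, against 21.1%). The median ranged from -0.51 with at least 100 counts in every library to 0.43 with counts not divided by length, so it has no fixed sign. Chek1, a kinase of the DNA damage checkpoint, had a TE of 3.28 (SE 0.17) from 2.56 and 1.52 RPKM of RNA. Rpl5, whose protein can bind Mdm2, was higher still at 4.43, but only 167 nt or 18.7% of its CDS was counted. Rpl11, which binds Mdm2 as well, had the most RNA at 923 and 1066 RPKM and a TE of 0.88. The lowest were the p53 kinase gene Hipk2 at -2.05 (SE 0.25) and the methyltransferase gene Setd8 at -1.13 (SE 0.13).

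The p53 paralogue Trp63, a defining factor of basal keratinocytes, had 141 and 125 RPKM of RNA, above Cdkn1a and Trp53, with a TE of -0.18 (SE 0.05). Trp73 had 5.99 and 6.15 RPKM and a TE of -0.61 (SE 0.25). The footprint level of Trp63 was 149 RPKM and that of Trp53 167 RPKM, so these paralogues were closer in footprints than in RNA.

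Relatives and partners of Rb1 gave a median TE of -0.06 over 11 of 12 genes (-0.25 to 0.31 under the alternatives), with 2 above 1 and 2 below -1 (18.2% each, against 20.7% and 21.1% of all passing genes). Its paralogues lay on opposite sides: Rbl1 had a TE of 1.34 (SE 0.09) and Rbl2 -1.65 (SE 0.21), although their RNA levels were alike, 10.0 and 8.75 RPKM for Rbl1 and 10.2 and 9.17 RPKM for Rbl2. Rb1 itself, at -0.21, fell between them. Of the E2F genes E2f7, a repressor, had 1.11 (SE 0.13), E2f5 had -1.08 (SE 0.43), and E2f4 had the most RNA at 42.2 and 43.7 RPKM with a TE of -0.35.

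The list of kinases and cyclins that Cdk inhibitors bind had 11 genes. All 11 passed, with a median TE of 1.65, 6 above 1 (54.5%, against 20.7% of all passing genes) and 0 below -1 (against 21.1%), and the median stayed between 1.32 and 2.09 under the alternatives. Cdk6 had the highest TE, 3.56 (SE 0.09), and Ccnb1 was next at 3.31 (SE 0.07). Cdk4, the most abundant in RNA at 205 and 227 RPKM, had the lowest TE at -0.39 (SE 0.06), and Ccnd3 followed at -0.17 (SE 0.21) with 63.3% of its CDS counted. Cdk4 and Cdk6, both bound by Ink4 proteins, thus had footprint levels of 208 and 153 RPKM, closer than their RNA.

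Further genes with a Cdkn name outside the 10 were the Ink4 gene Cdkn2d, at a TE of 1.16 (SE 0.24), and Cdkn3, at 1.76 (SE 0.18) with 78.3% of its CDS counted. Cdkn3 is in neither the Cip/Kip nor the Ink4 family given above. The regulators of Cdk inhibitors, 11 genes once Miz1 was counted as Zbtb17, all 11 passing, had a median TE of 0.70, 5 above 1 (45.5%, against 20.7% of all passing genes) and 1 below -1 (9.09%, against 21.1%). That median was 0.22 with RNA-seq over the CDS, 0.41 with the deposited RPKM filter, and 0.19 both with counts not divided by length and with at least 80% of the CDS counted, and at most 0.82. Rbx1 and Cks1b, parts of the ubiquitin ligase that removes p27, had TEs of 4.08 (SE 0.11) and 2.55 (SE 0.11), but only 45.8% of the Rbx1 CDS was counted. Skp1a, of the same ligase, had the most RNA at 188 and 163 RPKM, with a TE of 1.72 and 58.6% of its CDS counted. The lowest were Zbtb17 at -1.16 (SE 0.20), whose protein Miz1 can activate Cdkn2b and Cdkn1a, and the TGF-beta signal transducer gene Smad3 at -0.53 (SE 0.24). Polycomb repressors of the Ink4 locus, 12 of 12 passing, had a median of -0.04 (-0.20 to 0.11 under the alternatives), 0 above 1 (against 20.7% of all passing genes) and 2 below -1 (16.7%, against 21.1%); Ezh2, with the highest mean RNA level at 42.1 and 33.4 RPKM but below Phc2 (38.0) in replicate 2, had a TE of 0.73 (SE 0.06), Phc2 -1.06 (SE 0.11) and Phc1 -1.74 (SE 0.20).

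**Figure D4:**
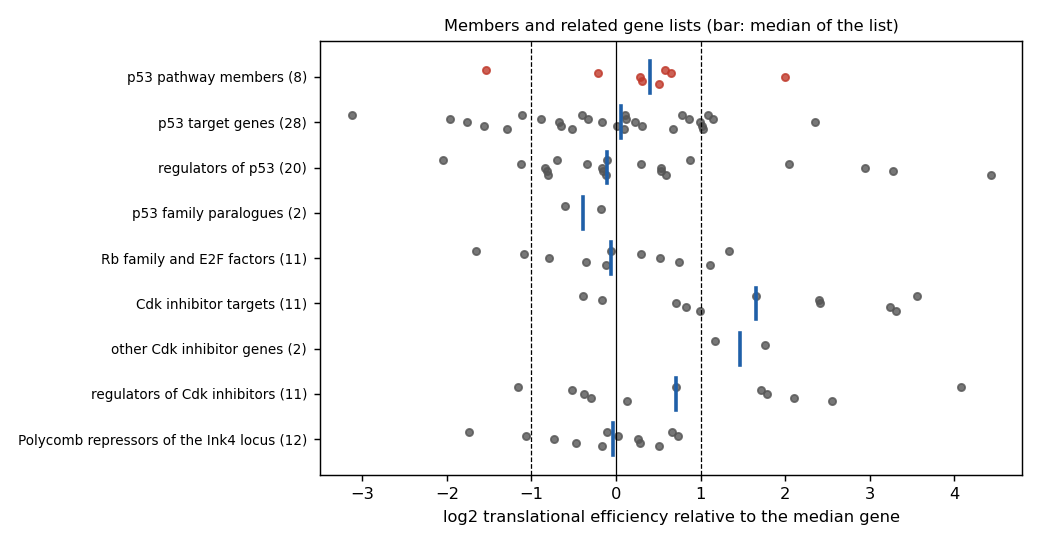
Log2 TE of each gene that passed, by list, with the number passing in brackets, blue bars at the median of each list and dashed lines at 1 and -1. The median is 0.41 for the 8 members (-0.06 to 0.48 under the alternatives) and 1.65 for the 11 Cdk inhibitor targets, and lists of regulators span from -2.05 to 4.43.

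Genes whose 3 levels were nearest to those of a member were found by Euclidean distance over log2 RPKM in the 3 libraries. Nearest to Trp53 were Gtf2h5 (distance 0.15), Zfp706 (0.18) and Psmd11 (0.18), with TEs of 2.08, 2.11 and 1.81. Mdm2 was nearest to Luc7l3 (0.04), Cldn25 (0.10) and Dpf2 (0.10), and Cdkn1a to Sec13 (0.09), Anp32b (0.12) and Cnih1 (0.12). With 3 libraries of 1 cell line this likeness is one of level only.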

How the data were processed

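Per the labels and the study's methods, the authors trimmed reads with Trim Galore, removed rRNA, mitochondrial and tRNA reads from the ribosome profiling library with Bowtie2 2.4.1, aligned to GRCm38 with STAR 2.6.1 and counted exons, CDS, 5′UTR and 3′UTR per gene with Plastid. They deposited estimated counts, which need not be whole, RPKM, and counted lengths for each region. The deposited RPKM was used only as an alternative filter; the RPKM given here was recomputed from the deposited estimated counts, counted lengths and the sum of exon counts of each library. Base means used counts rounded to whole numbers and DESeq2 1.42.0 size factors; edgeR 4.0.16 TMM factors were an alternative. Values were computed in Python 3.11.15, and the TE computation was tested on simulated data.

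The members and lists were chosen with earlier results of these data known. Named genes were all members, the 2 highest and 2 lowest TEs and the highest RNA-seq level of each other list, and the 3 genes nearest to Trp53, Mdm2 and Cdkn1a; other names were chosen after values were seen. A gene that this rule names is not reported here. Tigar, Cop1 and Adgre1 were matched through RefSeq synonyms (GRCm38.p6) and the name Miz1, an alias of Zbtb17, which the same list holds, was not counted as a further gene. Annotation and start codons came from GENCODE M21, with the best-ranked APPRIS transcript per gene. Long-read libraries were not analysed here.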

Additional observations from a re-analysis of the deposited data

How the results depend on the processing

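The median TE of the members, 0.41, was 0.27 with RNA-seq counted over the CDS, -0.060 with counts not divided by length, 0.12 with at least 100 counts in every library (5 members left), 0.48 with no filter beyond 1 count (9 members) and 0.36 with only genes that had at least 80% of the annotated CDS counted by name, a setting chosen after seeing the data (7 members). The number of members above 1 was 2 with RNA-seq over the CDS, where Cdkn2b reached 1.04, 2 with no filter, where Cdkn1c entered, and 0 with the 80% minimum, which left out Trp53. The number below -1 was 0 with at least 100 counts, which left out Mdm4. Adding 1 RPKM to both values, the deposited RPKM filter, TMM factors and DESeq2 size factors kept both counts at 1. These settings moved the median by less than 0.025. That value is the SD of the medians from each RNA-seq replicate alone, 0.42 for replicate 1 and 0.39 for replicate 2. Either replicate alone also kept both counts at 1. Their 2 medians define that SD, so setting them against it tests nothing. RNA-seq levels over the CDS rather than exons moved by more than the replicate SD for 8 of 10 genes, by the largest fold for Cdkn2c (3.67 to 5.86 RPKM), Cdkn1b (30.6 to 45.7) and Cdkn2a (31.3 to 45.1); the cause was not tested. No paired analysis was possible because the values come from no test and 1 group.

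Depth limits the low genes: Cdkn2c, Cdkn1c and Cdkn2b rest on 0, 3 and 24.8 footprints, and no second footprint library was analysed here, so the spread of footprints between cultures was not measured.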
